A study of Mus musculus with 30 samples.

Results

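The genes described here set the pace of the G1 phase of the cell cycle: the Myc genes Mycn, Myc and Mycl, the D-type cyclins Ccnd1, Ccnd2 and Ccnd3, and the cyclin-dependent kinase (CDK) inhibitors Cdkn1a, Cdkn1b, Cdkn1c and Cdkn2c. They were chosen by name, and all 10 had a row in both deposited tables, of 20569 protein-coding autosomal genes in the count table. Their polyA RNA was sequenced from the forelimb buds of wild-type Swiss Albino mouse embryos. Pregnant females were injected at E10.5 either with DMSO vehicle, the control, or with Wnt-C59 (C59), an inhibitor of the acyltransferase porcupine that all WNT ligands need for secretion. Forelimb buds were collected 1, 6, 12, 18 and 24 h later, which gives 10 groups of 3 libraries. No group carried a genetic change. The inhibitor was given to the mother and was not restricted to the limb, and its vehicle held methylcellulose and Tween-20 beside DMSO, which that of the controls did not, so inhibitor and vehicle cannot be told apart.

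MYC family proteins pair with MAX, bind E-boxes and raise the transcription of genes for ribosome assembly, nucleotide and polyamine synthesis. D-type cyclins activate CDK4 and CDK6, which phosphorylate the retinoblastoma protein RB and release E2F factors to switch on S-phase genes. The CIP/KIP inhibitors p21, p27 and p57 (Cdkn1a, Cdkn1b and Cdkn1c) hold back cyclin E and cyclin A kinases, and the INK4 inhibitor p18 (Cdkn2c) blocks CDK4 and CDK6. Ccnd1 and Myc are textbook targets of WNT/β-catenin signaling, and Mycn is the Myc gene of early limb bud mesenchyme.

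Library totals ran from 18188636 to 38974885 counts. All 8 limb mesenchyme markers were detected in every group, with summed levels of 1700 to 2420 CPM (counts scaled to a common library size). The third C59 replicate at 18 h stood apart: between it and the other replicates of its group the chi-square per degree of freedom over genes was 47.6 and 39.9, against 3.21 to 18.9 for all other replicate pairs. The spread between replicates, as edgeR's biological coefficient of variation, came to 12.5% for that time and to 5.41 to 7.52% for the rest. Tests of members and counts of called markers at 18 h are therefore given with and without it. Levels, sums and single list genes at 18 h include it. Xist and Y-linked RNA, taken as present above 5 FPKM (read fragments scaled to transcript length and library size), occurred together in 14 of the 30 libraries, which a single embryo would not give, although the study's methods describe a single pair of buds per replicate, so a library may hold more than 1 embryo. Summed over 4 Y-linked genes, FPKM reached 21.2 to 38.2 in C59 and 0.05 to 9.03 in DMSO libraries at 1 h. At 6 h the sum was 19.8 to 33.2 in C59 and 0 in all DMSO libraries. Embryo sex and treatment therefore cannot be told apart at 1 h or at 6 h, whereas at 12 h each group held 1 library above 18 FPKM and 2 below 0.5. At 18 h the library that stood apart held 0.06 FPKM of Xist and a Y-linked sum of 24.15. All other libraries at 18 h held at least 42.18 FPKM of Xist. Control groups differed too, with Y-linked sums of 20.1, 0.01 and 19.6 FPKM at 24 h. The part of embryo sex in the control steps and in the changes of the effect was not tested. In whole limb buds, fewer cells of a type and less RNA per cell cannot be told apart. Axin2, a negative feedback gene of WNT/β-catenin signaling, fell from 112 ± 6.47 CPM with DMSO to 28.3 ± 1.52 with C59 at 6 h (SD, n = 3), and its log2 difference was -1.455 (12 h), -0.16 (18 h) and -0.09 (24 h).

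At 1 h none of the 10 members passed edgeR's quasi-likelihood test (adjusted p below 0.05, here a call), nor DESeq2, while 2 of them, Cdkn1a and Cdkn1b, had an unadjusted p below 0.05, and 2.75% of all genes tested were called (1.14% higher and 1.61% lower). At 6 h, 6 members were called, against 19.6% of all genes: Mycn, Myc, Ccnd1 and Cdkn1a were lower with C59, and Cdkn1b and Cdkn1c were higher. At 12 h the number was again 6, against 47.5% of all genes, with Mycn, Myc, Ccnd1 and Ccnd3 lower and Cdkn1b and Cdkn1c higher. At 18 h 2 were called, against 7.08% of all genes (3.46% higher and 3.62% lower), with Mycn higher and Myc lower. Without the library that stood apart 5 members were called at 18 h (Mycn, Ccnd2 and Cdkn1c higher, Myc and Mycl lower), and of 13558 genes 951 were higher and 1248 lower. At 24 h 2 were called, against 6.44% (2.88% higher and 3.56% lower), with Ccnd1 higher and Mycl lower. C59 and DMSO libraries did not overlap for 5 members 1 h after injection, where 22% of all genes did not overlap, for 7 after 6 h (36.8% of all genes), for 6 after 12 h (57.1%), for 5 after 18 h (34%) and for 6 after 24 h (27.7%). Only Mycn, at 6 and 12 h, was also beyond 1 log2 unit, as were 0.283% of all genes tested 1 h after injection, 1.17% after 6 h, 4.95% after 12 h, 1.29% after 18 h and 0.819% after 24 h. The share called among all genes at 12 h is so large that the member count there is close to it, and the sizes of the differences carry the description below.

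**Figure D1:**
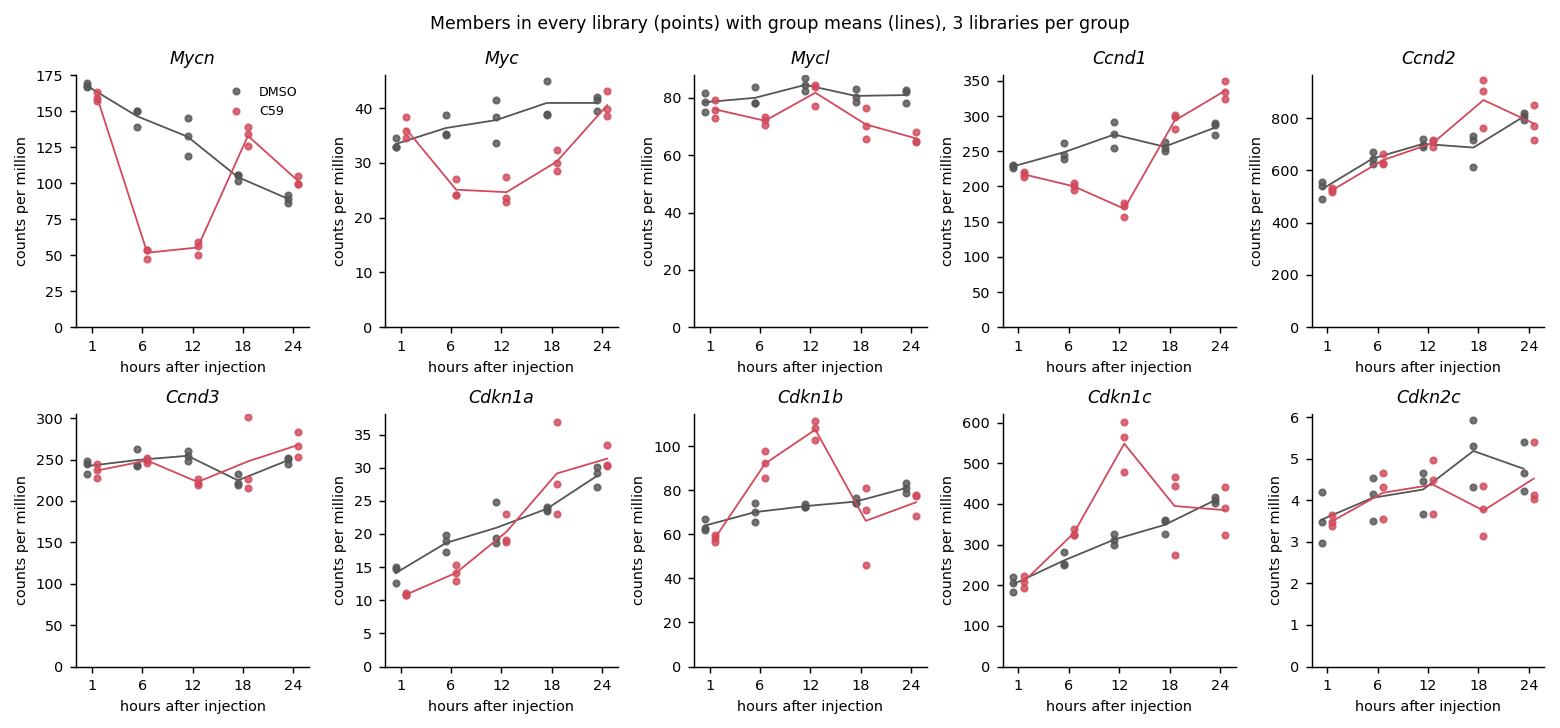
Levels of the 10 members in each of the 30 libraries in CPM (y axis, from 0) against hours after injection (x axis, evenly spaced), with DMSO in gray, C59 in red and lines through the group means. The 3 C59 libraries lie far below the DMSO libraries for Mycn at 6 and 12 h and far above them for Cdkn1c at 12 h.

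**Figure D2:**
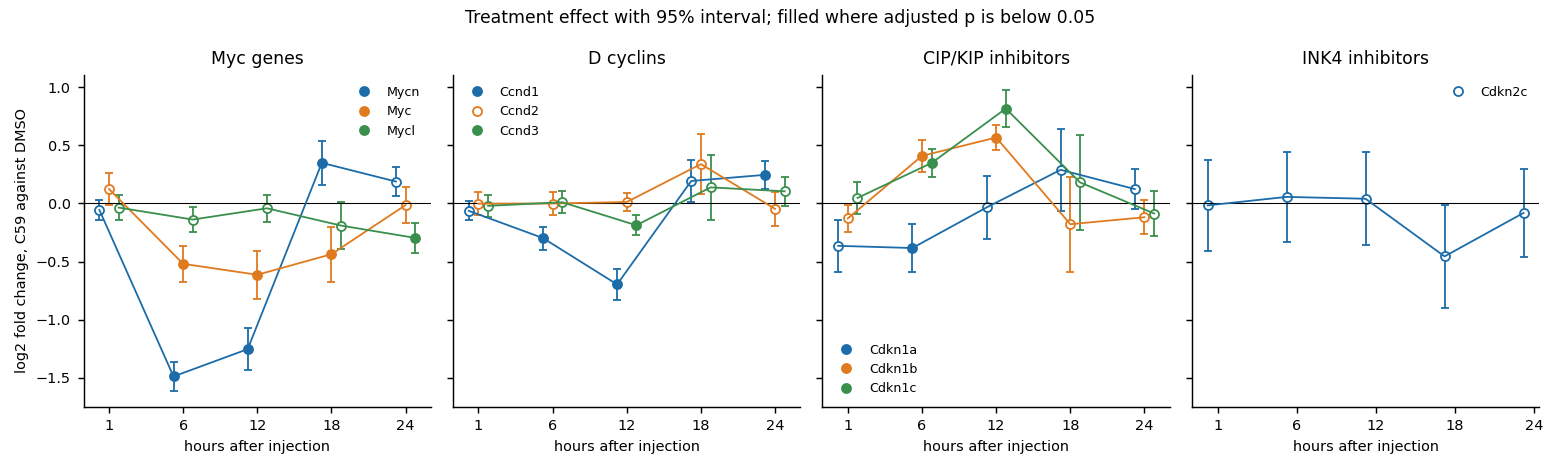
Log2 fold change of C59 against DMSO (y axis) at each time (x axis) for the Myc genes, D cyclins, CIP/KIP inhibitors and the INK4 inhibitor, with 95% intervals from the edgeR fit and filled points where the adjusted p was below 0.05. Mycn moves from -1.49 at 6 h to 0.35 at 18 h, while Cdkn1b and Cdkn1c peak at 12 h.

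Mycn (ENSMUSG00000037169, chr12:12936093-12941914, minus strand, mm10; annotated positions here are from GENCODE M21) changed most of the 10 members. The promoter is printed because its 8-base E2F motif is rare. It runs 5′ to 3′ on the minus strand over chr12:12941915-12942086 (RefSeq, GRCm38.p6), the 172 bases before the annotated start of the gene, and capitals mark each match of TTTGGCGC.
Mycn: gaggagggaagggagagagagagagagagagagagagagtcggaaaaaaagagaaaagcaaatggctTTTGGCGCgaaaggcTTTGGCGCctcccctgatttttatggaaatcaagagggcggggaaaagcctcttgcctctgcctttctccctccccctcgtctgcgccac
Motifs were searched on both strands of the 300-base windows of all genes: CTTTGAT and CTTTGAA (TCF/LEF), CACGTG (E-box), TTTCCCGC and TTTGGCGC (E2F), CCAAT and TATAAA, none of which overlapped in the sequences printed. The Mycn window held TTTGGCGC 2 times, and 0.51% of 32851 windows held it at all. CTTTGAA, present in 5.14% of windows, occurred 1 time in the Mycn window, after the annotated start. Of the 10 members 6 had a window, and the E-box was found in 1 of the 9 windows of these 6, a Cdkn2c window, against 7.15% of all windows. These are letter matches, not binding sites.

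In the DMSO libraries at 6 h Mycn stood at 150.5, 150.5 and 139 CPM, and in the C59 libraries at 47.5, 53.9 and 53.9 CPM. No C59 library came near the lowest control. The log2 fold change was -1.49 ± 0.0598 (SE; adjusted p = 1.18e-09, edgeR), a level 0.356 times that of the control, and Mycn ranked 50th by size of difference among 13100 genes. At 12 h the DMSO libraries read 133, 119 and 145 CPM and the C59 libraries 56.6, 50.2 and 59.4 CPM, again well apart, with a log2 fold change of -1.25 ± 0.0806 (adjusted p = 1.5e-06). At 1 h, by contrast, the log2 difference was -0.06, with a 95% interval of -0.141 to 0.028. The change of the treatment effect between 1 and 6 h was itself -1.43 on the log2 scale (adjusted p = 9.74e-11).

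Mycn was the only Myc gene above control at 18 h. The DMSO libraries then read 106, 101.5 and 106 CPM and the C59 libraries 139, 126 and 134 CPM, without overlap. The log2 fold change was 0.35 ± 0.0846 (adjusted p = 0.0417). It was 0.35 (adjusted p = 0.0104) without the C59 library that stood apart, but the call was lost without any of the other 5 libraries, C59 replicates 1 and 2 and DMSO replicates 1, 2 and 3 (adjusted p 0.0953 to 0.174), while over all alternatives the log2 value stayed between 0.313 and 0.39. The change of the effect from 12 to 18 h was 1.61 ± 0.121 (adjusted p = 9.27e-06), a call kept in all 22 alternatives, with values between 1.467 and 1.679. At 24 h the log2 difference was 0.19 (adjusted p = 0.0733), with 86.1, 92.2 and 89.2 CPM in DMSO and 99.5, 105 and 99.9 CPM in C59 libraries. Without C59 replicate 1 it was called (0.20, adjusted p = 0.0353; 0.0353 to 0.295 over all alternatives).

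Myc (ENSMUSG00000022346, chr15:61985391-61990374, plus strand) was expressed at a lower level and fell less. At 6 h the DMSO libraries held 35.3, 38.7 and 35.1 CPM and the C59 libraries 24.2, 24.1 and 27.0 CPM. All C59 values were below all control values, with a log2 fold change of -0.52 ± 0.0733 (adjusted p = 0.000241, edgeR). At 12 h the values were 33.7, 38.3 and 41.4 CPM against 27.5, 23.6 and 22.9 CPM, a log2 fold change of -0.61 ± 0.0942 (adjusted p = 0.000382). Unlike Mycn, Myc was still below control at 18 h, with 45.0, 39.0 and 38.8 CPM in DMSO and 29.9, 28.5 and 32.35 CPM in C59 libraries (log2 fold change -0.44 ± 0.104, adjusted p = 0.0391). Without the outlying C59 library this was -0.48 (adjusted p = 0.00938), and without any of the other 5, C59 replicates 1 and 2 and DMSO replicates 1, 2 and 3, the call was lost (adjusted p 0.0883 to 0.136), while the value stayed between -0.482 and -0.366 over all alternatives. At 24 h the groups overlapped, at 40.9 ± 1.38 CPM with DMSO and 40.5 ± 2.37 with C59 (SD, n = 3), and the 95% interval of the log2 difference was -0.172 to 0.144.

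Mycl (ENSMUSG00000028654, chr4:122995652-123002485, plus strand) held between 64.5 and 87.0 CPM in all 30 libraries. No call was made before 24 h. The 95% interval of the log2 difference was -0.245 to -0.032 at 6 h (adjusted p = 0.066, and 0.0495 without DMSO replicate 2, within 0.0495 to 0.261 over all alternatives) and -0.157 to 0.073 at 12 h. At 24 h the C59 libraries read 65.1, 68.1 and 64.5 CPM and the DMSO libraries 78.3, 82.1 and 82.6 CPM, which did not overlap, with a log2 fold change of -0.30 ± 0.0603 (adjusted p = 0.014, edgeR). That call was lost without DMSO replicate 1, 2 or 3 (adjusted p 0.0512 to 0.0777), with log2 values of -0.318 to -0.258 over all alternatives. At 18 h the log2 difference was -0.19 (adjusted p = 0.235), and -0.24 (adjusted p = 0.0332) without the outlying C59 library (0.00404 to 0.531 over all alternatives).

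Because FPKM is scaled to transcript length, it allows the Myc genes to be set beside each other. In DMSO libraries Mycn supplied 62.5 ± 0.318% of the summed FPKM of the Myc genes at 1 h (SD, n = 3) and 44.7 ± 0.491% at 24 h. With C59 its share was 37.6 ± 1.75% at 6 h and 37.6 ± 2.13% at 12 h, against 58.2 ± 0.469% and 54.5 ± 1.93% in the controls. Mycl was then the leading Myc gene, at 40.4 ± 0.819% and 42.7 ± 2.53% of the sum. By 18 h Mycn had the greater share in the C59 libraries, 59.6 ± 2.08% against 48.5 ± 0.44%. The summed level of the family was 39.4 ± 1.38 FPKM with C59 and 70.4 ± 3.27 FPKM with DMSO at 6 h, and 66.5 ± 3.52 and 63.5 ± 3.93 FPKM at 18 h. The shares and sums were not tested.

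**Figure D3:**
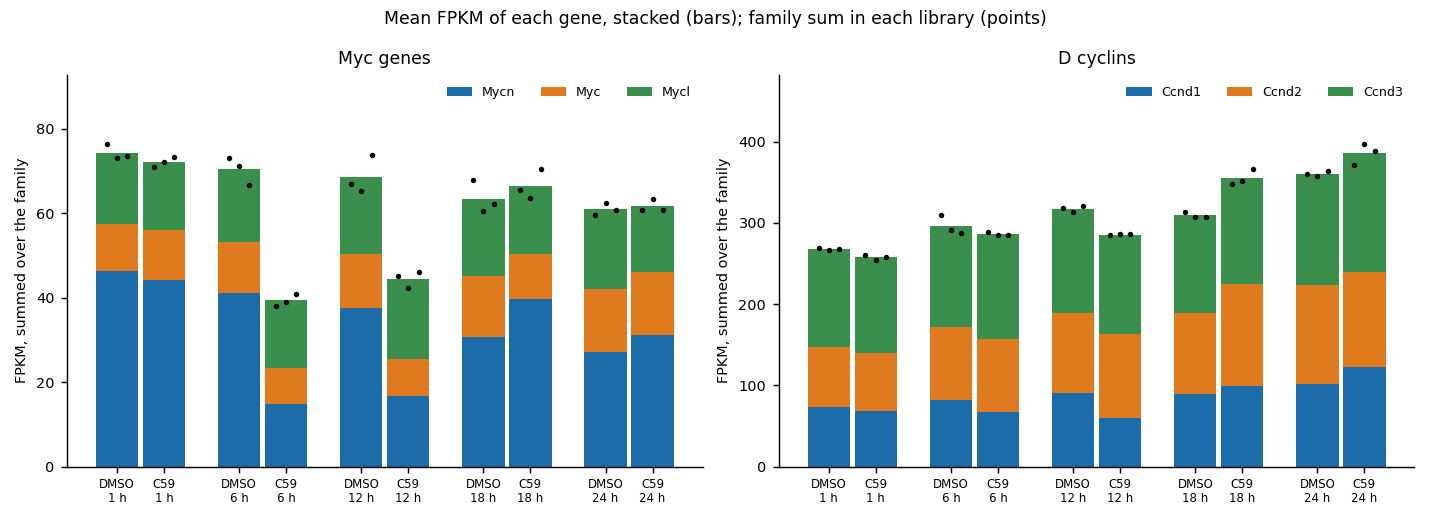
Mean FPKM of each Myc gene (left) and D cyclin (right), stacked (y axis, from 0) for each group of 3 libraries (x axis), with points for the family sum of each library. The C59 bars of the Myc genes at 6 and 12 h are short mainly in the Mycn segment, and the D cyclin bars differ far less.

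Ccnd1 (ENSMUSG00000070348, chr7:144929931-144939925, minus strand) was the D cyclin that changed most. It fell at 6 h, from 262, 245 and 239 CPM in DMSO to 206, 201 and 194 CPM in C59 libraries (log2 fold change -0.30 ± 0.0464, adjusted p = 0.000527, edgeR), and the groups did not overlap. The difference was larger at 12 h, when DMSO libraries read 275, 254 and 292 CPM and C59 libraries 177, 172 and 157 CPM (log2 fold change -0.70 ± 0.0599, adjusted p = 7.99e-06). The effect changed by -0.40 ± 0.0744 between 6 and 12 h (adjusted p = 0.00144). At 18 h the values were 263, 251 and 255 CPM with DMSO and 298, 281 and 301 CPM with C59, apart but not called (0.19, adjusted p = 0.189, and 0.18, adjusted p = 0.0704, without the outlying C59 library). The change of the effect from 12 to 18 h was 0.90 ± 0.101 (adjusted p = 0.000158), a call kept in all 22 alternatives.

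At 24 h Ccnd1 was higher with C59, at 325, 349 and 334 CPM against 287, 273 and 290.5 CPM (log2 fold change 0.25 ± 0.0567, adjusted p = 0.0246). Leaving out C59 replicate 2 or DMSO replicate 1, 2 or 3 ended this call (adjusted p 0.0551 to 0.127), with log2 values of 0.22 to 0.27 over all alternatives. The annotation places LTO1 on the opposite strand over part of Ccnd1, with 7.3 to 17.04% as many counts, and Bysl over part of Ccnd3, with 16.08 to 31.99%. The strand used in counting was not given in the sources used here, so reads of these pairs may be shared.

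Ccnd2 (ENSMUSG00000000184, chr6:127125162-127152193, minus strand) was not called at any time, although with upper-quartile scaling it passed at 12 h (0.095, adjusted p = 0.0415; 0.0415 to 0.939 over all alternatives). In DMSO libraries it ran from 490.0 CPM at 1 h to 819 CPM at 24 h. The 95% interval of the log2 difference was -0.099 to 0.098 at 6 h and -0.068 to 0.092 at 12 h, neither of which holds the value of Ccnd1 at the same time. At 12 h the DMSO libraries read 719, 697 and 689.6 CPM and the C59 libraries 689.6, 715 and 712 CPM, fully mixed. At 18 h they read 613, 732 and 718 CPM against 944, 902 and 762 CPM, a log2 difference of 0.34 (adjusted p = 0.117), which was 0.43 (adjusted p = 0.00952) without the outlying C59 library, whose value was 762. Over all alternatives at 18 h the adjusted p ran from 0.00187 to 0.312.

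Ccnd3 (ENSMUSG00000034165, chr17:47505051-47599691, plus strand) had the highest FPKM of the D cyclins in the DMSO groups, at 120 to 137. It was called at 12 h only, where 254, 249 and 261 CPM with DMSO stood against 227, 219.7 and 222 CPM with C59. The log2 fold change was -0.19 ± 0.0392 (adjusted p = 0.0027, edgeR), and limma on log2(FPKM + 1) gave -0.07 (adjusted p = 0.094). At 6 h the 95% interval was -0.086 to 0.106. At 18 h the log2 difference was 0.14 (adjusted p = 0.54), and -0.02 (adjusted p = 0.843) without the outlying C59 library. D cyclins together held 317 ± 3.72 FPKM with DMSO and 286 ± 0.768 with C59 at 12 h, and 310 ± 3.73 and 355 ± 9.79 FPKM at 18 h (SD, n = 3).

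Cdkn1b (ENSMUSG00000003031, chr6:134920401-134925513, plus strand) encodes p27, which binds cyclin E and cyclin A kinases and restrains entry into S phase. Its promoter, the only member window with more than 1 CCAAT, is shown for contrast with that of Mycn. It runs 5′ to 3′ on the plus strand over chr6:134920151-134920400 (RefSeq, GRCm38.p6), the 250 bases before the start, and capitals mark CCAAT.
Cdkn1b: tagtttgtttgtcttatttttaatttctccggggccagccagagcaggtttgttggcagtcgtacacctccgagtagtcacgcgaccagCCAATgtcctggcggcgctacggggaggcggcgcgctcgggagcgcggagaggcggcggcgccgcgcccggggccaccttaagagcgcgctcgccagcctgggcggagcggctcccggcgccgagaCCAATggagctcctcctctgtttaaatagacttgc
The whole window held 3 such matches, and 37.4% of all windows held at least 1. Neither E2F motif, neither TCF/LEF motif nor the E-box was found in it.

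Cdkn1b rose at 6 h, from 65.6, 74.35 and 70.2 CPM in DMSO to 85.6, 98.0 and 92.6 CPM in C59 libraries, without overlap (log2 fold change 0.41 ± 0.0648, adjusted p = 0.000601, edgeR). The difference was larger at 12 h, with 72.5, 72.2 and 73.7 CPM against 103, 111 and 108 CPM (0.57 ± 0.0478, adjusted p = 6.87e-06). At 18 h the DMSO libraries read 74.0, 76.45 and 74.05 CPM, and the C59 libraries 81.2, 71.0 and 46.1 CPM, the last being the library that stood apart. The log2 difference was -0.18 with it and 0.03 without it, neither called (adjusted p = 0.588 and 0.826), and -0.358 to 0.027 over all alternatives. The change of the effect from 12 to 18 h was -0.74 ± 0.2 (adjusted p = 0.034) and -0.54 (adjusted p = 0.000831) without that library. With all other libraries kept, leaving out any of DMSO replicates 1 to 3 at 18 h or any of the 6 libraries at 12 h ended the call of -0.74 (adjusted p 0.0571 to 0.0827).

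Cdkn1c (ENSMUSG00000037664, chr7:143458339-143461050, minus strand) encodes p57, an imprinted inhibitor made in differentiating cells. It had the largest increase of the inhibitors. At 6 h the DMSO libraries held 251, 249 and 282 CPM and the C59 libraries 324, 339 and 323 CPM, apart from each other (log2 fold change 0.35 ± 0.0544, adjusted p = 0.000547, edgeR; 0.0782 in the fit of all 30 libraries). At 12 h they held 312, 327 and 298 CPM and 601, 565 and 479.6 CPM (0.82 ± 0.0735, adjusted p = 1.09e-05), a level 1.76 times that of the control. The effect grew by 0.47 ± 0.1 between 6 and 12 h (adjusted p = 0.00405).

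At 12 h, 6 of 7 tested cartilage markers were also higher with C59, with a summed level of 1970 to 2720 CPM against 1050 to 1100 CPM in DMSO, and Snorc of that list was at 0 in both groups. Muscle markers, 5 of 8 higher and 2 lower, summed to 199 to 277 CPM against 87.9 to 154 CPM, surface ectoderm markers to 404 to 546 against 302 to 334 CPM, and macrophage markers to 57.1 to 61.1 against 34.7 to 40.1 CPM. Of 8 limb mesenchyme markers, 6 were lower and 1 higher, with a sum of 1700 to 1840 against 2270 to 2390 CPM. Endothelial markers were higher for 4 of 8, erythroid markers for 1 of 7 and Schwann cell precursor markers for 3 of 7. Of all genes tested at 12 h, 22% were higher and 25.5% lower. At 6 h, when Cdkn1c and Cdkn1b were already higher, cartilage markers summed to 1020 to 1220 against 903 to 950 CPM and limb mesenchyme markers to 1780 to 1880 against 2340 to 2420 CPM. At 6 h muscle markers summed to 92.8 to 121 against 72.8 to 77.5 CPM, surface ectoderm markers to 311 to 317 against 298 to 334, endothelial markers to 404 to 429 against 416 to 424, erythroid markers to 2820 to 3700 against 3670 to 4060, macrophage markers to 33.9 to 46.2 against 33.4 to 35.1 and Schwann cell precursor markers to 58.1 to 73.1 against 51.5 to 57.5 CPM. At 6 h 4 of 8 limb mesenchyme, 3 of 7 erythroid and 1 of 8 endothelial markers were called lower, and none of these higher. Cartilage markers were higher for 2 of 5 tested and Schwann cell precursor markers for 3 of 6, with none lower. Of 8 surface ectoderm markers 1 was higher and 3 lower, and of 8 muscle markers 2 higher and 1 lower. No macrophage marker passed. Of all genes tested at 6 h, 8.2% were higher and 11.4% lower. The part of these markers in the change of Cdkn1c, Cdkn1b, Mycn or any other member was not tested.

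At 18 h counts and FPKM ordered the libraries of Cdkn1c differently. Its CPM values were 327, 358 and 360.3 with DMSO and 445, 465 and 274.5 with C59. In FPKM, however, the C59 libraries read 579, 646 and 689, so that the third, lowest by counts, was highest by FPKM. The first DMSO library was likewise lowest by counts and highest by FPKM (503.2, 461.4 and 434.9). For Cdkn1b the third C59 library was the lowest C59 library by both. The log2 difference of Cdkn1c by counts was 0.18 (adjusted p = 0.58, edgeR) and 0.39 (adjusted p = 0.00562) without the third C59 library. By limma on log2(FPKM + 1) it was 0.45 (adjusted p = 0.0624). Over all alternatives it ran from 0.045 to 0.45, with adjusted p from 0.00562 to 0.915. At 18 h cartilage markers (4 of 7 higher) summed to 1850 to 2170 CPM with C59 and 1150 to 1330 CPM with DMSO, surface ectoderm markers (4 of 8 higher) to 387 to 470 and 299 to 321 CPM, and macrophage markers (3 of 8 higher) to 68.7 to 77.9 and 47.9 to 53.9 CPM. Of the others, 1 limb mesenchyme marker was higher and 1 lower, 1 muscle marker higher and 2 lower, 1 Schwann cell precursor marker higher, and no endothelial or erythroid marker passed. Of all genes tested at 18 h, 3.46% were higher and 3.62% lower. Without the third C59 library, 5 of 7 cartilage, 5 of 8 surface ectoderm and 3 of 8 macrophage markers were higher. Then 2 muscle markers were higher and 3 lower, and 2 erythroid markers higher and 1 lower. For Schwann cell precursor and limb mesenchyme markers 1 each was higher and 1 lower, and no endothelial marker passed. Of 13558 genes, 951 were then higher and 1248 lower. The part of these markers in the result was not tested. At 24 h the 95% interval of the Cdkn1c difference was -0.284 to 0.11.

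**Figure D4:**
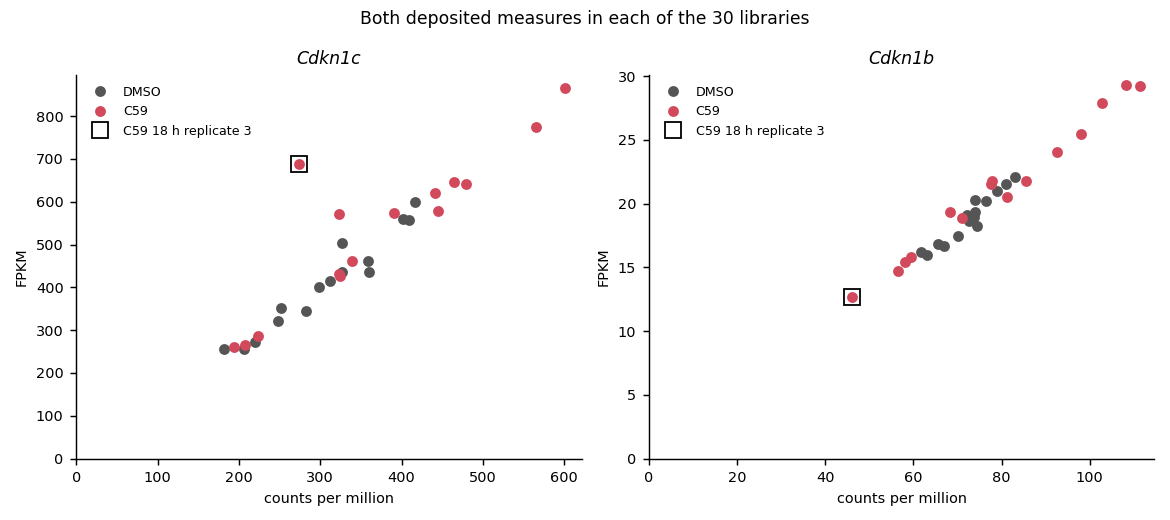
FPKM (y axis) against CPM (x axis) of Cdkn1c (left) and Cdkn1b (right) in each of the 30 libraries, DMSO in gray and C59 in red. A square marks the third C59 library at 18 h. For Cdkn1c it lies at 274.5 CPM and 689 FPKM, farthest from the other libraries. Among those, the first C59 library at 24 h (322.5 CPM, 571 FPKM) also has a high FPKM for its CPM. For Cdkn1b the square is the lowest of all libraries on both axes, at 46.1 CPM and 12.7 FPKM.

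Cdkn1a (ENSMUSG00000023067, chr17:29090976-29100727, plus strand) encodes p21, the inhibitor that p53 induces after damage. Unlike the other CIP/KIP genes it was lower with C59 at 6 h. Then the DMSO libraries read 17.2, 18.9 and 19.8 CPM and the C59 libraries 12.9, 15.4 and 14.1 CPM (log2 fold change -0.38 ± 0.0974, adjusted p = 0.0133, edgeR). The groups were apart, but leaving out C59 replicate 1 or 3 or DMSO replicate 3 ended the call (adjusted p 0.0501 to 0.076; 0.00552 to 0.076 over all alternatives). A difference of like size was present at 1 h, with 15.0, 14.7 and 12.6 CPM against 10.7, 11.05 and 10.7 CPM (log2 difference -0.365, adjusted p = 0.0751), and without DMSO replicate 3 it was called (-0.446, adjusted p = 0.0241; 0.0241 to 0.222 over all alternatives). The effect at 6 h differed from that at 1 h by -0.02, with an interval of -0.307 to 0.274. At 12 h the groups were mixed, at 20.9 ± 3.32 and 20.3 ± 2.36 CPM (SD, n = 3). At 18 h the log2 difference was 0.29 (adjusted p = 0.296), and 0.09 (adjusted p = 0.532) without the outlying C59 library.

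Cdkn2c (ENSMUSG00000028551, chr4:109660876-109667189, minus strand) was the least abundant member, with 2.96 to 5.93 CPM over all libraries, and was not called in any comparison of C59 with DMSO. The 95% interval of its log2 difference was -0.331 to 0.442 at 6 h and -0.898 to -0.014 at 18 h (-0.46, adjusted p = 0.196; -0.46, adjusted p = 0.187 without the outlying C59 library; 0.043 in the fit of all 30 libraries and up to 0.493 over the alternatives). The interval at 6 h holds both 0 and the value of Cdkn1b, so neither no difference nor a difference of that size could be excluded. Among the other CDK inhibitors Cdkn2a was at 0 in all libraries of C59 at 1 h and of DMSO at 6 h and averaged at most 0.127 CPM elsewhere, and Cdkn2b averaged 0.252 to 0.724 CPM. Cdkn2d was not called with C59 at any time, and Cdkn3, a phosphatase that acts on CDKs, was lower at 18 h (log2 fold change -0.66, adjusted p = 0.022).

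The controls themselves changed over the day. Between 1 and 24 h of DMSO, 8 members were called, 7 higher and 1 lower, against 59.3% of all genes (30.2% higher and 29.2% lower), and 2, Cdkn1a and Cdkn1c, beyond 1 log2 unit, against 12%. Mycn was the lower one: its mean was 168 ± 1.53 CPM after 1 h, 147 ± 6.79 after 6 h, 132 ± 13.2 after 12 h, 104 ± 2.47 after 18 h and 89.2 ± 3.06 after 24 h (SD, n = 3), and its log2 change over the course was -0.855 ± 0.0423 (adjusted p = 4.82e-10). Cdkn1a rose from 14.1 ± 1.28 to 28.8 ± 1.56 CPM (1.09 ± 0.0866, adjusted p = 8.47e-08). Cdkn1c rose from 203 ± 19 to 409 ± 7.29 CPM (1.07 ± 0.058, adjusted p = 1.36e-09). Ccnd2 rose by 0.66, Cdkn2c by 0.48, Cdkn1b by 0.40, Ccnd1 by 0.37 and Myc by 0.35 on the log2 scale, while Mycl and Ccnd3 changed by 0.10 each and were not called (adjusted p = 0.0819 and 0.0552). The Cdkn2c call was lost in 5 of 16 alternatives: DESeq2 and the fits without DMSO 24 h replicate 2 or 3 or DMSO 1 h replicate 1 or 2 (adjusted p 0.0515 to 0.132, with 0.0123 to 0.132 over all). Without DMSO 1 h replicate 1, Mycl (adjusted p = 0.0427; 0.028 to 0.275) and Ccnd3 (adjusted p = 0.0343; 0.00297 to 0.254) were called. Libraries of these times did not overlap for 9 members, against 64.9% of all genes.

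Between neighboring control times fewer members passed. From 1 to 6 h 4 were called (Mycn lower, Ccnd2, Cdkn1a and Cdkn1c higher), against 5.67% of all genes, and from 6 to 12 h Cdkn1c alone, against 2.97%. From 12 to 18 h Mycn alone was called, against 7.35%, and from 18 to 24 h 3 members (Mycn lower, Cdkn1a and Cdkn1c higher), against 9.69%. No member changed by over 1 log2 unit in a step, against 0.702%, 0.468%, 1.31% and 1.29% of all genes in turn. In the order of the control levels, Mycn at 6 h and at 12 h did not differ beyond their spread (95% interval of the log2 difference -0.277 to 0.012). With 1 library left out, 0 to 3 members were called from 1 to 6 h, 0 to 1 from 6 to 12 h, 0 to 3 from 12 to 18 h and 0 to 6 from 18 to 24 h, and each call ended with single libraries left out. The Mycn step from 1 to 6 h lost its call without any of DMSO 6 h replicates 1 and 3 and DMSO 1 h replicates 1, 2 and 3 (adjusted p 0.0568 to 0.161, within 0.0281 to 0.161 over all alternatives). The Ccnd2 step from 1 to 6 h lost its call without any of DMSO 6 h replicate 3 and DMSO 1 h replicates 1 and 2 (adjusted p 0.0523 to 0.0588, within 0.000187 to 0.0588 over all alternatives). The Cdkn1a step from 1 to 6 h lost its call without any of DMSO 6 h replicates 2 and 3 and DMSO 1 h replicates 1, 2 and 3 (adjusted p 0.065 to 0.14, within 0.0165 to 0.14 over all alternatives). The Cdkn1c step from 1 to 6 h lost its call without any of DMSO 6 h replicate 3 and DMSO 1 h replicate 1 (adjusted p 0.0541 to 0.0721, within 9.67e-05 to 0.118 over all alternatives). The Cdkn1c step from 6 to 12 h lost its call without any of DMSO 12 h replicates 1 and 2 and DMSO 6 h replicates 1 and 2 (adjusted p 0.0646 to 0.125, within 0.0016 to 0.329 over all alternatives). The Mycn step from 12 to 18 h lost its call without any of DMSO 18 h replicates 2 and 3 and DMSO 12 h replicates 1 and 3 (adjusted p 0.0803 to 0.119, within 0.0017 to 0.119 over all alternatives). The Mycn step from 18 to 24 h lost its call without any of DMSO 24 h replicates 1 and 3 and DMSO 18 h replicate 3 (adjusted p 0.0738 to 0.11, within 0.00751 to 0.11 over all alternatives). The Cdkn1a step from 18 to 24 h lost its call without any of DMSO 24 h replicates 2 and 3 and DMSO 18 h replicates 2 and 3 (adjusted p 0.0661 to 0.112, within 0.0107 to 0.132 over all alternatives). The Cdkn1c step from 18 to 24 h lost its call without any of DMSO 24 h replicates 1, 2 and 3 (adjusted p 0.0526 to 0.0794, within 0.00115 to 0.26 over all alternatives). Without DMSO 18 h replicate 1, Ccnd3 and Cdkn1c were called from 12 to 18 h and Ccnd1, Ccnd2 and Ccnd3 from 18 to 24 h, without DMSO 18 h replicate 2 Ccnd2 was called from 18 to 24 h, and without DMSO 12 h replicate 2 Cdkn1a was called from 12 to 18 h. The C59 differences and these steps share the DMSO libraries.

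The treatment effect itself was compared between neighboring times. It differed between 1 and 6 h for 5 members, against 13% of all genes (1.34% beyond 1 log2 unit, Mycn among them): Mycn by -1.43, Myc by -0.64, Ccnd1 by -0.23, Cdkn1b by 0.54 and Cdkn1c by 0.30 on the log2 scale. The Cdkn1c call was lost without any of C59 6 h replicates 1 to 3, DMSO 6 h replicates 1 and 2, C59 1 h replicates 1 and 3 and DMSO 1 h replicates 2 and 3 (adjusted p 0.0625 to 0.117). From 6 to 12 h it differed for 3, against 18.1% (1.89% beyond 1 log2 unit, no member among them): Ccnd1 by -0.40, Ccnd3 by -0.20 and Cdkn1c by 0.47. The Ccnd3 call was lost without any of C59 12 h replicate 2, DMSO 12 h replicates 1 and 3, C59 6 h replicate 3 and DMSO 6 h replicates 2 and 3 (adjusted p 0.0556 to 0.0812), and Cdkn1a (0.50, adjusted p = 0.0275; 0.0275 to 0.317 over all alternatives) was called without DMSO 12 h replicate 2. From 12 to 18 h it again differed for 3, against 8.49% (2.09% beyond 1 log2 unit, Mycn among them): Mycn by 1.61, Ccnd1 by 0.90 and Cdkn1b by -0.74. Without the outlying C59 library Ccnd2 (0.42, adjusted p = 0.00515) and Cdkn1c (-0.43, adjusted p = 0.018) were called as well, and Cdkn1c (-0.76, adjusted p = 0.0397) also without C59 18 h replicate 2. From 18 to 24 h edgeR called 0 of the 10 members, against 6.96% of all genes (1.27% beyond 1 log2 unit), with 2, Myc and Ccnd2, at an unadjusted p below 0.05, and DESeq2 called 1, Myc. Without the outlying C59 library edgeR called 3: Myc (0.46, adjusted p = 0.0174), Ccnd2 (-0.49, adjusted p = 0.00811) and Cdkn1c (-0.49, adjusted p = 0.0208).

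The MYC target list holds 10 genes of ribosome assembly and metabolism. At 6 h 9 of the 10 were lower with C59 and none was higher, with a median log2 fold change of -0.34, where 11.4% of all genes were lower and their median was 0.005. Examples were Srm, spermidine synthase (-0.665), and the nucleolar genes Nop56 (-0.63), Nolc1 (-0.59) and Nop58 (-0.51). At 12 h all 10 were lower, with a median of -0.74, where 25.5% of all genes were lower and their median was 0.017. Srm then stood at -1.10, Cad, which begins pyrimidine synthesis, at -1.05, Nolc1 at -0.98 and Nop56 at -0.95. At 18 h none passed (median -0.18; 3 lower without the outlying library). At 24 h 2 were higher, Srm (0.36) and Odc1 (0.26), where 2.88% of all genes were higher. Of 8 MYC network partners, Mxd1, a repressive partner of MAX, was higher at 6 h (0.28) and 12 h (0.56), Mxd4 (0.715) and Mxi1 (0.20) were higher at 12 h, Max was lower at 6 h (-0.28), and Mxd3 was lower at 18 h (-0.85). At 1 h Mnt was higher (0.29) and Mxi1 lower (-0.25).

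**Figure D5:**
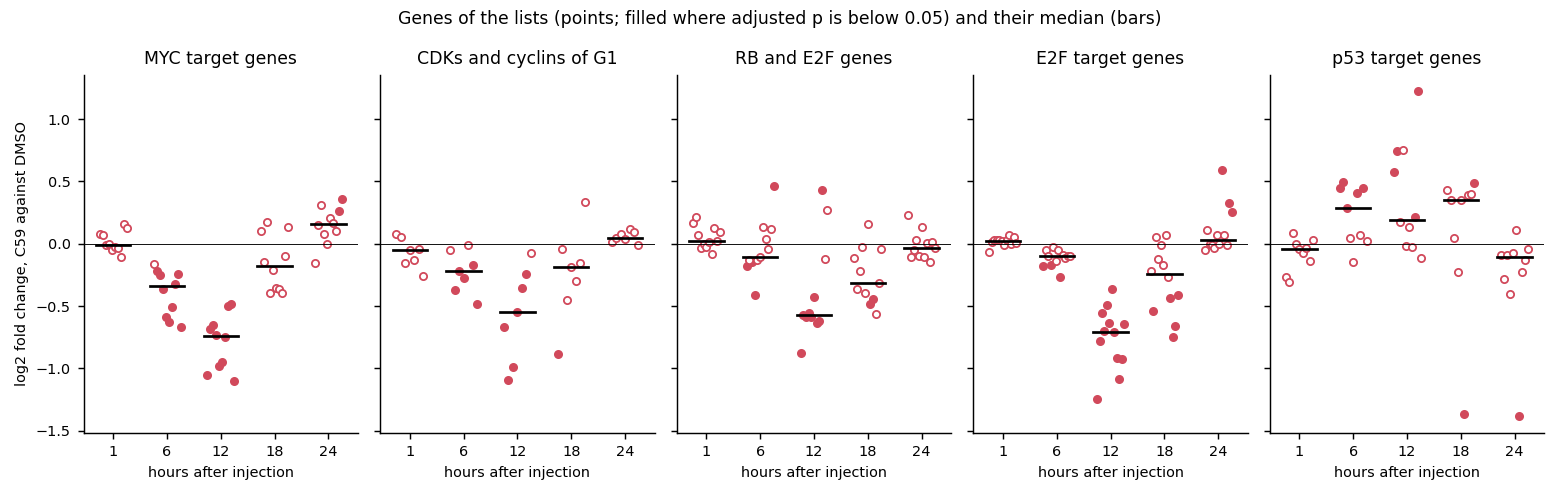
Log2 fold change of C59 against DMSO (y axis) for each gene of the lists named above the panels, at each time (x axis), filled where adjusted p was below 0.05, with a bar at the list median. The MYC and E2F target genes lie below 0 at 12 h, where all 10 and all 12 are filled. Their medians are near 0 at 1 h (-0.009 and 0.024). At 24 h the medians are 0.16 and 0.033, with 2 MYC and 3 E2F target genes filled above 0.

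Of 12 E2F target genes, 3 were lower at 6 h (Mcm7 -0.27, Cdc6 -0.18 and Mcm3 -0.17; median -0.10) and all 12 at 12 h (median -0.705), among them Cdc6, which loads the replicative helicase (-1.245), the ribonucleotide reductase subunit Rrm2 (-1.08), Tk1 (-0.925) and Pcna (-0.92). At 18 h 5 were still lower, with Rrm2 at -0.75, Tk1 at -0.66 and Pcna at -0.44, and 7 without the outlying library. At 24 h 3 were higher (Mcm7 0.59, Tk1 0.32 and Tyms 0.26). Of 7 CDKs and cyclins of G1 and their activators, 5 were lower at 6 h, led by Cdk6 (-0.48), Ccne1 (-0.37), Cdc25a (-0.27) and Ccne2 (-0.215), and 6 at 12 h, led by Ccne1 (-1.09), Ccne2 (-0.99), Ccna2 (-0.66) and Cdc25a (-0.54). At 18 h Ccna2 (-0.88) alone was called, with 2 lower without the outlying library, and none at 24 h. With upper-quartile scaling 4 of the 7 were lower at 6 h.

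Of 11 RB and E2F genes, 3 were lower at 6 h (E2f4 -0.41, E2f1 -0.175 and E2f3 -0.15; 1 with upper-quartile scaling) and Rbl2 was higher (0.47). At 12 h 8 were lower, led by E2f1 (-0.87), E2f7 (-0.63), E2f8 (-0.62) and E2f3 (-0.59), and Rb1 was higher (0.43). E2f7 (-0.485) and E2f8 (-0.45) were lower at 18 h, and 5 of the 11 were lower without the outlying library. Of all genes tested, 11.4% were lower at 6 h, 25.5% at 12 h and 3.62% at 18 h, when 3.46% were higher. Of the p53 target genes, a list without Cdkn1a, 5 of 9 tested were higher at 6 h and none was lower (median 0.29), among them Btg2 (0.50), Trp53inp1 (0.45), Bbc3 (0.44) and Pmaip1 (0.41), and at 12 h 4 of 10 were higher (Trp53inp1 1.23, Btg2 0.75, Bbc3 0.58 and Sesn2 0.21), where 8.2% and 22% of all genes were higher. Pmaip1, which encodes the apoptosis factor NOXA, was lower at 18 h (-1.36) and 24 h (-1.38), and Zmat3 was higher at 18 h (0.485), when 1 of 9 tested was higher and 1 lower (4 and 1 of 10 without the outlying library). Gdf15 was at 0 in all DMSO libraries at 12 and 24 h.

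In the controls, from 1 to 24 h, 9 of 10 MYC target genes (median -0.53), 12 of 12 E2F target genes (-0.49) and 7 of 7 CDKs and cyclins of G1 (-0.34) were lower, where 29.2% of all genes were lower. Rrm2 fell by 0.86 and Ccne1 by 0.68 on the log2 scale, and Mcm7 stood at -1.15. Rbl2 (1.07) and Rb1 (0.94), which encode pocket proteins that restrain E2F, were higher, and 5 of the 11 RB and E2F genes were lower, led by E2f5 (-0.78) and E2f7 (-0.46). Of 8 MYC network partners 4 were higher and 1 lower, led by Mxd4 (0.86), and of 9 p53 target genes 5 were higher and 3 lower. Cell type markers moved as well: all 7 tested cartilage markers were higher (median 1.40; summed level 593 to 697 CPM at 1 h and 1410 to 1570 CPM at 24 h), as were 7 of 8 muscle markers with 1 lower (median 3.97; 49.7 to 67.1 and 393 to 472 CPM), 8 of 8 macrophage markers (median 1.23; 24.1 to 29.6 and 57.1 to 64.1 CPM) and 7 of 7 Schwann cell precursor markers (median 2.58; 36.9 to 43.8 and 173 to 178 CPM). Of 8 limb mesenchyme markers 5 were lower and 2 higher (2300 to 2330 and 2020 to 2080 CPM), of 8 surface ectoderm markers 4 lower and 3 higher, of 8 endothelial markers 4 lower, and of 7 erythroid markers 2 lower and 4 higher. Of all genes tested over this course, 30.2% were higher and 29.2% lower. The part of these markers in the control course of the members was not tested. The same controls had lower Mycn and higher Cdkn1a and Cdkn1c, as given above.

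For members whose group means spanned more than 1 log2 unit, the genes most alike over the 10 group means were found among 12541 genes by the root mean square of the difference between centered log2 levels. Nearest to Mycn were Aen (0.192), Zdhhc23 (0.206) and Hpdl (0.233). Nearest to Cdkn1a were Fhl2 (0.109), Ahr (0.129) and Fosl2 (0.133), and nearest to Cdkn1c were Dnajb4 (0.102), Prnp (0.106) and Marchf3 (0.107). The span of Mycn was 1.7 log2 units, from its highest mean with DMSO at 1 h to its lowest with C59 at 6 h, of Cdkn1a 1.52 and of Cdkn1c 1.43. Ccnd3 spanned only 0.26.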

How the data were processed

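Every library was grouped by treatment and collection time from the sample labels. The authors trimmed reads with Cutadapt 1.16, mapped them with STAR 2.7.0e to mm10 with a custom annotation, and deposited raw counts per gene (no normalization) and, separately, FPKM computed by the authors with cufflinks 2.2.1 (unstranded, with multi-read and bias correction). Protein-coding autosomal genes that filterByExpr kept (minimum count 10) were scaled by TMM and compared by the quasi-likelihood test of edgeR 4.0.16 under R 4.3.3, each comparison fitted on its own libraries, with Benjamini-Hochberg adjustment over all genes; a call is an adjusted p below 0.05. CPM was scaled with TMM factors over the 30 libraries. FPKM served for comparison between genes. The code was tested on simulated data. Alternatives used DESeq2 1.42.0 and limma 3.58.1. The study's methods describe a single pair of forelimb buds per replicate, which conflicts with Xist and Y-linked RNA in the same library. Members and gene lists were chosen with earlier results of these data known. Named list genes were up to 4 called genes with the largest differences per list and time, and list members at 0, apart from those not reported here. For lists, other scalings and the fit without C59 18 h replicate 3 were added after seeing the data.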

Additional observations from a re-analysis of the deposited data

Results flagged for a closer look

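The effect of C59 was not the same at neighboring times for several members, by a test of the difference between the effects (edgeR, adjusted p below 0.05). From 1 to 6 h it changed by -1.43 for Mycn, -0.642 for Myc, -0.233 for Ccnd1, 0.54 for Cdkn1b and 0.303 for Cdkn1c on the log2 scale. The Cdkn1c change lost its call in 10 of 22 alternatives (adjusted p 0.00667 to 0.401 over all), 9 of them with a single library left out. From 6 to 12 h the effect changed by -0.4 for Ccnd1, -0.2 for Ccnd3 and 0.466 for Cdkn1c, and the Ccnd3 change lost its call in 10 of 22 alternatives (adjusted p 0.0109 to 0.2). From 12 to 18 h it changed by 1.607 for Mycn, 0.895 for Ccnd1 and -0.743 for Cdkn1b. Mycn went from below control to above it. Its call above control at 18 h held in 9 of 16 alternatives (adjusted p 0.000316 to 0.174 over all). The Cdkn1b change lost its call in 9 of 22 alternatives (adjusted p 0.000831 to 0.0827).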

How the results depend on the processing

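Of 2480 recomputed values for 140 member results, 2304 kept their side of the threshold, 119 lost a call, 57 gained it and 0 called values changed sign. Differences called in neither fit could change sign, as for Cdkn1b at 18 h (-0.358 to 0.027 over all alternatives). Counts of called members that moved by over 1.5 times were as follows. With the study's added fold threshold of 1 log2 unit the counts were 1 at 6 h and 12 h, 0 at 18 h and 24 h, 1 for the effect change from 1 to 6 h, 0 from 6 to 12 h, 1 from 12 to 18 h, 2 for DMSO 24 h against 1 h and 0 for every neighboring DMSO step. A fit of all 30 libraries gave 6 at 18 h, 3, 1, 6 and 2 for the successive effect changes, 1 for DMSO 6 h against 1 h and 0 for 12 h against 6 h. Upper-quartile scaling gave 1 at 18 h and 5 for DMSO 24 h against 18 h, no filter gave 1 at 18 h, a mean of at least 1 CPM gave 6 for DMSO 24 h against 18 h, and DESeq2 gave 1 for the effect change from 18 to 24 h. limma on FPKM, with a pseudocount of 1 or 0.1, gave 1 at 18 h, 1 at 24 h and 0 for DMSO 12 h against 6 h and 18 h against 12 h. Leaving out 1 library gave 0 to 1 at 1 h, 0 to 5 at 18 h, 0 to 3 at 24 h, 2 to 5 for the effect change from 12 to 18 h, 0 to 3 from 18 to 24 h, and for the successive DMSO steps 0 to 3, 0 to 1, 0 to 3 and 0 to 6. The cause was not tested.

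Replicate numbers did not pair the samples: over 15 same-numbered pairs the correlation of deviations ran from -0.248 to 0.147, and in 5 of the 15 the correlation was best with the own number. A replicate block gave 0 calls at 18 h and 1 for DMSO 24 h against 18 h. Upper-quartile scaling also moved the split of all called genes: 1369 of 2635 were higher at 6 h against 1074 of 2565, 4088 of 6663 at 12 h against 2934 of 6330, 1273 of 2294 for the effect change from 6 to 12 h against 894 of 2458, 534 of 1167 from 12 to 18 h against 676 of 1162, and 928 of 1276 for DMSO 24 h against 18 h in place of 782 of 1314. It moved the median of all genes at 12 h to 0.1, from 0.017.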
